A study of Mus musculus with 2 samples.

Results

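The forkhead (Fox) transcription factors of the mouse were described in RNA from the developing face. The family was taken as every protein-coding gene whose symbol is Fox followed by a subclass letter from a to s and a number, which gave 44 genes in 19 subclasses, of 21474 protein-coding genes and 43346 annotated genes in the files. Total RNA longer than 200 nt had been sequenced from embryonic facial prominences, the neural crest-filled swellings that form upper face and jaw. There was 1 group of 2 libraries, from embryos of strain B6NCrl at embryonic day 11.5 with no genetic change or treatment in the labels. Library 1 was a pool of 109 embryos and library 2 a pool of 88 embryos, both of mixed sex, and each library started from 10 ng of RNA with spike-in RNA added. A pooled, dissected tissue gives an average over embryos and over all cells in the dissection, so fewer cells of a type and less RNA per cell cannot be told apart. Since no condition was set against another, the levels carry no test, and differences between the libraries are differences between 2 pools of the same kind.

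Forkhead proteins bind DNA through a winged-helix domain in which the third helix lies in the major groove, and the subclass letters follow the similarity of that domain. Some of them, such as the Foxa proteins, can bind their sites in closed chromatin, while others act downstream of hedgehog, Nodal or insulin signals. In the embryonic head, Foxf and Foxc genes are known from the neural crest mesenchyme, Foxe1 from oral and thyroid epithelium and Foxe3 from the lens.

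The coding sequences of the recognition helix are shown first, because they bear on whether reads can be told apart between members. Each is a stretch of 48 coding bases, 5′ to 3′, cut at the same place in the leading transcript of the gene, and capitals mark the bases that differ from Foxf1.
Foxf1: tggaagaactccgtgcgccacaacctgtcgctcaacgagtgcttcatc
Foxf2: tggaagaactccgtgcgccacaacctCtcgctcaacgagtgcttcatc
Foxc1: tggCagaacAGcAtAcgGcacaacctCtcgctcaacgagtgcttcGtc
Foxc2: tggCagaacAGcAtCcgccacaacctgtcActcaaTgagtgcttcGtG
Foxd1: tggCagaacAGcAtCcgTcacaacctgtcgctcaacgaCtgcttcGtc
Foxn3: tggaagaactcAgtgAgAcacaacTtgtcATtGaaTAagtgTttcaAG
Foxm1: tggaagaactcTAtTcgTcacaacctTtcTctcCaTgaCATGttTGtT
Foxo1: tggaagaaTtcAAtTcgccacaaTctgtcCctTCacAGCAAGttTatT
Foxf2 differed from Foxf1 at 1 of the 48 bases, Foxc1 at 8, Foxm1 at 15 and Foxo1 at 16. The stretch was found in 43 of the 44 genes, all but Foxr1. Members of the same subclass had a median identity of 85.4% over 39 pairs, against 70.8% for members of different subclasses, of 903 pairs in all. The stretch alone did not separate the subclasses, since Foxc1 matched Foxd1 at 44 of the 48 bases and Foxc2 at 42. Over whole transcripts, the longest exact run shared by 2 members was 68 nt, between Foxd3 and Foxd4, while Foxc1 and Foxc2 shared a run of 53 nt. None of the 946 pairs shared a run of 100 nt, and the posterior SD of the expected count, the authors' measure of how far reads could be assigned, was 0 for 35 members. Among members above the threshold used below it was highest for Foxl1, at 1.35% of the count.

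Level is given in TPM, the authors' abundance per transcript length scaled to a fixed total per library, and a gene was called on at 1 TPM or more in both libraries, off below 1 TPM in both, and split otherwise. By this rule 25 of the 44 forkhead genes were on (56.8%), 16 were off and 3 were split (Foxd3, Foxe3 and Foxq1). The share on was close to that of all protein-coding genes, 58.5%. A member was on in 13 of the 19 subclasses, and in none of subclasses b, h, i, q, r and s. A mean of 10 TPM or more was reached by 12 members, against 37.6% of protein-coding genes, and the other 13 genes that were on lay below it. The median member stood at 1.71 TPM, against 3.45 TPM for the median protein-coding gene. In the Sox family 17 of 19 genes were on, with a median of 5.43 TPM and the highest value at Sox11 (359 TPM), and in the Pax family 5 of 9 were on, with a median of 1.44 TPM and the highest value at Pax6 (15.2 TPM).

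Together the forkhead genes held 398 TPM in library 1 and 404 TPM in library 2, a mean of 401 ± 4.26 (SD, n = 2). Subclass p held 41.2% of this sum, n 17.7%, m 7.94%, f 6.70%, j 6.09% and c 5.68%. The 6 highest genes, Foxp1, Foxn3, Foxp2, Foxm1, Foxp4 and Foxj3, held 70.2%. In the order of levels, Foxp1, Foxn3, Foxp2 and Foxm1 did not overlap with their neighbours between libraries. Foxp4 and Foxj3 overlapped with each other, Foxf1 stood clear below them, and Foxk2, Foxd1, Foxc2, Foxc1 and Foxf2 formed an overlapping group that spanned 9.29 to 13.6 TPM. Foxn2 stood alone at 6.03 to 6.97 TPM. Below it, neighbours overlapped between Foxo1 and Foxo3, between Foxl1 and Foxo4, between Foxd2 and Foxk1, and from Foxa2 through Foxa1 to Foxe1, while Foxj2 overlapped with no neighbour. The split gene Foxe3, at 2.35 and 0.81 TPM, spanned the values of Foxl2, Foxa2, Foxa1 and Foxe1.

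**Figure D1:**
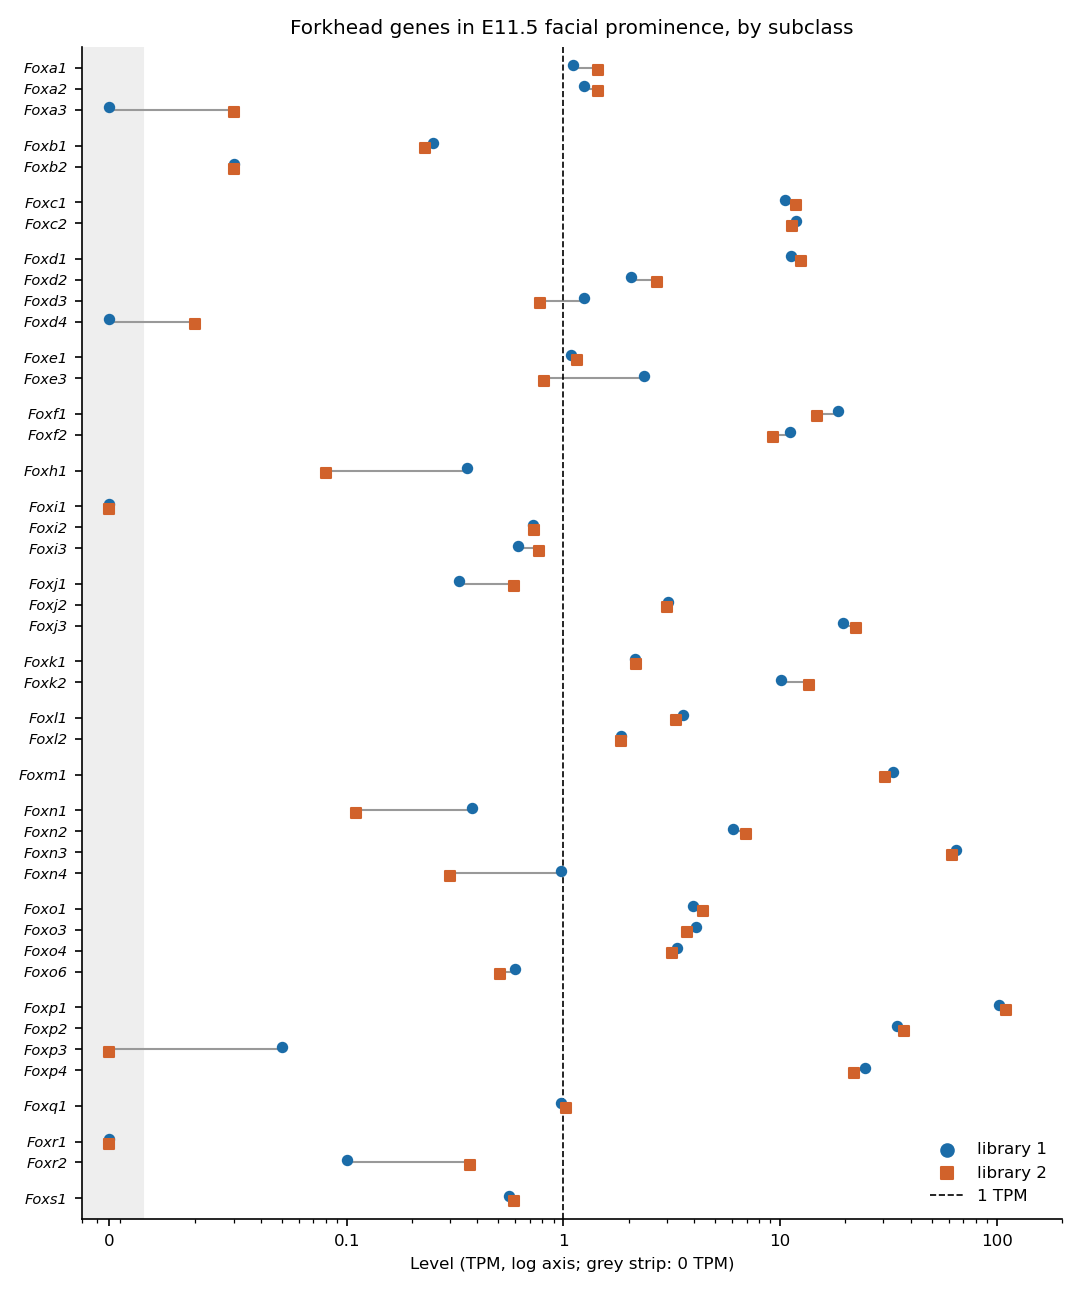
Level of 43 of the 44 forkhead genes in TPM on a log axis, by subclass from a to s, with library 1 as circles, library 2 as squares and a dashed line at 1 TPM; the grey strip holds values of 0. The 3 split genes cross the line, and Foxp1 lies farthest to the right, at 102 and 110 TPM.

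The libraries held 30849058 and 31600302 expected counts, of which 28627217 and 29281440 fell on genes and 26122 and 27259 on forkhead genes. Spike-in RNA took 15.4% and 15.8% of TPM. The label of the tissue was checked on 10 markers of facial mesenchyme, all of which were on, with a median of 72.8 TPM. Msx1 (263 TPM) and Alx1 (131 TPM) were highest in that list and Alx4 (12.9 TPM) was lowest. Surface epithelium was also present in full, 8 of 8 markers with a median of 27.1 TPM, led by Epcam (54.2) and Krt18 (51.4), with Grhl2 lowest (3.68). All 9 endothelial markers were on (median 21.3 TPM; Egfl7 48.9 and Plvap 36.9 highest, Tek 7.51 lowest), as were all 6 erythroid markers (median 895 TPM; Hbb-y 7094 and Hba-x 1823 highest, Klf1 9.62 lowest).

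To compare the libraries, expected counts were scaled by TMM, and the ratio of library 2 over library 1 was given with an exact 95% interval (Clopper-Pearson, from how the reads divide between the libraries). That interval covers counting error only. Over the 15986 genes kept for the fit, edgeR gave a coefficient of variation between the libraries of 9.79%, and a wider interval adds that spread. Of the 37 members with at least 20 reads, the counting interval excluded 1 in 17, against a background of 40.0% of all 16671 genes with that many reads. These 17 comprised 10 higher in library 2 (background 21.2%) and 7 higher in library 1 (background 18.7%). A difference of at least 1.5-fold, whatever its interval, was seen in 6 members (background 11.6%). With the wider interval 6 members excluded 1 (background 8.21%), among them Foxe3, Foxn1 and Foxn4 on the side of library 1 and Foxk2 and Foxr2 on the side of library 2. The median log2 ratio was 0.05 over the members and 0.00 over all genes compared.

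**Figure D2:**
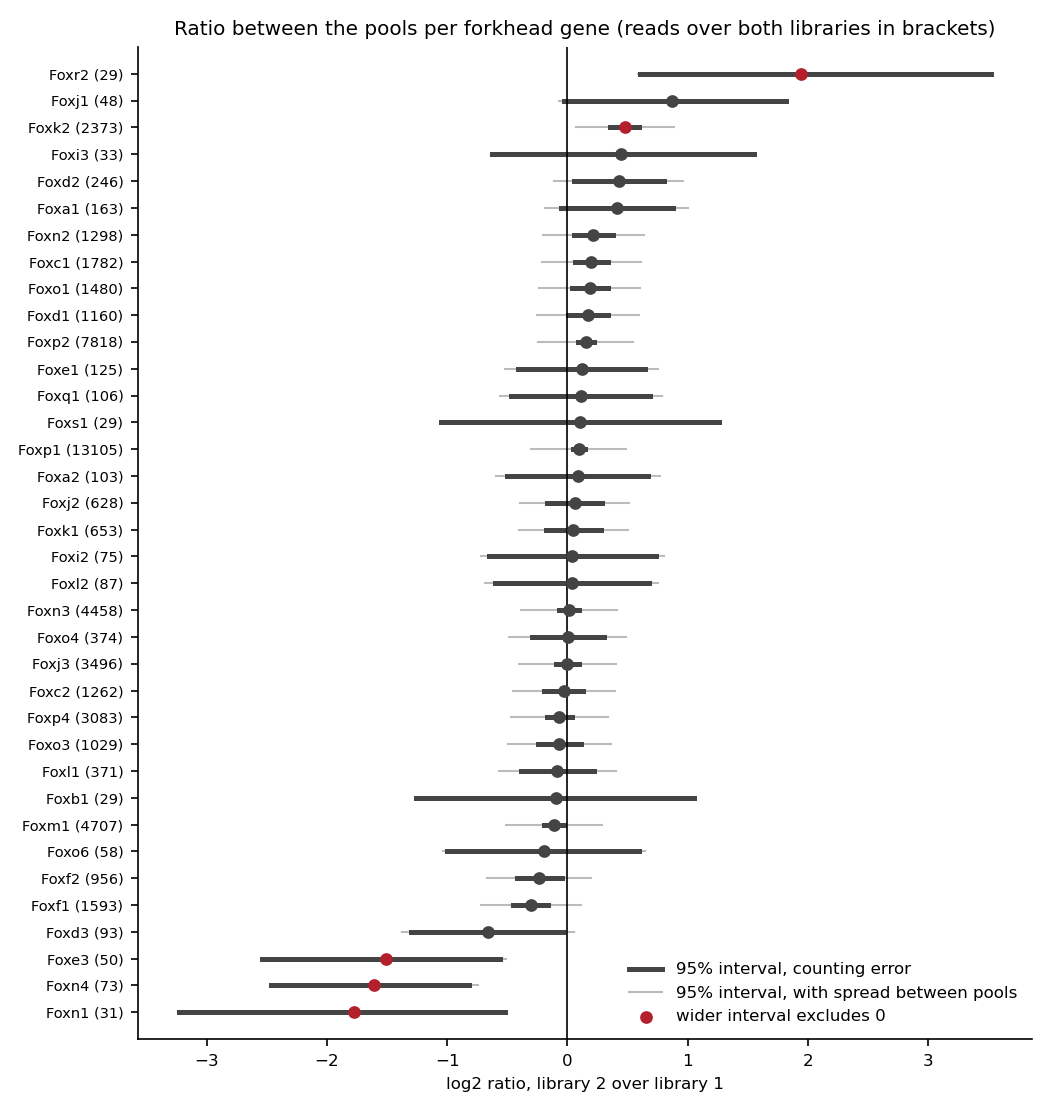
Log2 ratio of library 2 over library 1 for 36 of the 37 forkhead genes with at least 20 reads, with the reads over both libraries in brackets, thick bars for the 95% counting interval and thin bars for the interval with the spread between pools. Foxn1, Foxn4 and Foxe3 lie farthest to the left, Foxr2 lies farthest to the right, and the 5 plotted genes whose wider interval excludes 0 are in red.

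Subclass p was the most abundant, at 161 TPM in library 1 and 170 TPM in library 2 over its 4 genes. Foxp proteins act as dimers and mostly repress transcription, and are best known from lung, heart, brain and blood development. Foxp1 (ENSMUSG00000030067.13, mm10 chromosome 6, 98925338 to 99522721, minus strand) had 102 TPM in library 1 and 110 TPM in library 2, a mean of 106 ± 5.95 (SD, n = 2) and the highest level in the family. Foxp2 (ENSMUSG00000029563.12, chromosome 6, 14901349 to 15441977), known from human speech and from vocal circuits, had 34.5 and 37.4 TPM, a mean of 36.0 ± 2.02. The level of Foxp1 in TPM exceeded that of Foxp2 by 2.95-fold in both libraries, and by 1.61-fold in library 1 and 1.55-fold in library 2 when reads were set over the longest protein-coding transcript of each gene, an alternative chosen after seeing the data. Foxp4 (ENSMUSG00000023991.12, chromosome 17, 47867133 to 47924645), which can pair with either of them, had 24.5 and 22.0 TPM, a mean of 23.2 ± 1.82. By read ratio the libraries differed little, with 1.07 (95% interval 1.03 to 1.10) for Foxp1, 1.11 (1.06 to 1.16) for Foxp2 and 0.955 (0.890 to 1.03) for Foxp4. The wider intervals of all 3 included 1.

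Foxp3, the regulator of regulatory T cells, was off at 0.05 TPM in library 1 and 0 TPM in library 2. Its 3.49 estimated reads carried a posterior SD of 33.2%, and the gene overlaps Ccdc22 (20.4 and 20.2 TPM), Ppp1r3f and Flicr. The T cell markers Cd3e, Cd3g, Cd4 and Il2ra, 0 of 4 on, had no read in either library.

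The 3 transcribed Foxp genes were spread over many annotated transcripts, and for Foxp1 the level rests on how reads were divided among 32 of them. The leading transcript, the one with the largest share of the gene's TPM, was Foxp1-225 in both libraries, with 45.1% in library 1 and 46.0% in library 2. It is a model of 1848 nt which begins near the gene's promoter at chr6:99028249-99028548, and its annotation is tagged as lacking support from mouse sequence evidence. By reads, Foxp1-225 held 1650.5 and 1856 of the 6344 and 6761 reads of the gene. A pair of longer models held similar numbers, Foxp1-204 (7177 nt) with 2105 and 1542 reads and Foxp1-206 (7029 nt) with 1758 and 2364 reads, but took 14.2% and 9.46%, and 12.1% and 14.8%, of TPM. Foxp1-204 thus led by reads in library 1 and Foxp1-206 in library 2. The posterior SDs were 285 and 241.5 reads for Foxp1-204 and 286 and 240 reads for Foxp1-206. The order of the 2 in library 1 is therefore uncertain. All 3 transcripts code for the recognition helix. If the reads of Foxp1 are set over the length of the longest protein-coding transcript alone, the level is 44.7 ± 1.45 TPM, still the highest of the family.

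The promoter windows at the start of the main short model and of a main long model of Foxp1 are shown because they differ in composition. Both are 300 bases from RefSeq on GRCm38.p6, the assembly of mm10, read 5′ to 3′ on the minus strand, with the first 10 bases of the transcript in capitals.
Foxp1-225, chr6:99028249-99028548: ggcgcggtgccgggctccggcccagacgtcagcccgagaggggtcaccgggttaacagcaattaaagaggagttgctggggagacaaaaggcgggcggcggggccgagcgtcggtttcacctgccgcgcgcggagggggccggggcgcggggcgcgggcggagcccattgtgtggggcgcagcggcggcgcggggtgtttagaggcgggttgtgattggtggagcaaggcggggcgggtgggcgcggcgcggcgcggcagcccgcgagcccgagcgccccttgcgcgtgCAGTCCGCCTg
Foxp1-206, chr6:99266466-99266765: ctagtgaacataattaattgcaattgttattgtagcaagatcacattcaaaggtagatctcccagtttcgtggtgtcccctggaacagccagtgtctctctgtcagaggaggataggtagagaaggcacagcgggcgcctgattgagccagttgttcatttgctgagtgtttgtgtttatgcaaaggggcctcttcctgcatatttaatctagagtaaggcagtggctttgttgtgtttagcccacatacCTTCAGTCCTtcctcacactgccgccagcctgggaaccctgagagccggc
The window of Foxp1-225 held 44 CG dinucleotides and 75.3% G or C, and that of Foxp1-206 held 5 CG dinucleotides and 48.7% G or C. The annotated start of Foxp1-225 lies 39 nt from the RefSeq start of its window, and that of Foxp1-206 matches its own. The window of Foxp1-220, which held 0.71% and 1.02% of the gene's TPM, had 13 CG dinucleotides.

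Foxp2 was led by Foxp2-207 in both libraries (43.4% and 45.3%), ahead of Foxp2-201 (32.6% and 31.9%), and Foxp4 by Foxp4-204 (43.4% and 43.6%), ahead of Foxp4-202 (31.0% and 33.1%). For these pairs the lengths are closer, 6760 and 5647 nt for Foxp2, and 3999 and 3198 nt for Foxp4. Transcripts that code for the recognition helix held 82.3% and 83.2% of the TPM of Foxp1, 77.9% and 79.3% of that of Foxp2, and 88.1% and 93.8% of that of Foxp4.

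Subclass n followed with 72.5 and 69.4 TPM, nearly all of it from Foxn3. Foxn3 (ENSMUSG00000033713.7, chromosome 12, 99190078 to 99563582, minus strand), a repressor first isolated for its effect on a cell cycle checkpoint in yeast, had 65.1 and 62.1 TPM, a mean of 63.6 ± 2.13, with a ratio of 1.01 (0.951 to 1.07). Its leading transcript, Foxn3-205 (39.6% and 39.8% of TPM), is a model of 566 nt with an incomplete 3′ end and held 246 and 241 of the gene's 2221 and 2237 reads. Foxn3-201 (2803 nt), with 37.3% and 38.8% of TPM, held 1345 and 1357 of the reads, and Foxn3-209 held 16.6% and 17.5% of TPM. Over the longest protein-coding transcript Foxn3 stood at 38.7 ± 0.292 TPM. Foxn2 had 6.03 and 6.97 TPM, a mean of 6.50 ± 0.665, and Foxn2-201 held 94.1% and 94.5% of it.

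The other members of subclass n were off and differed between the libraries. Foxn4, which acts in progenitors of the retina and spinal cord, had 0.97 TPM (55 reads) in library 1 and 0.30 TPM (18 reads) in library 2, a ratio of 0.328 (0.181 to 0.567). Foxn1, which drives thymus epithelium and hair, had 0.38 TPM (24 reads) and 0.11 TPM (7 reads), a ratio of 0.292 (0.106 to 0.699). Both were higher in library 1, where 4 members were at least 25% higher with a counting interval that excluded 1 (background 8.39%), the others being Foxd3 and Foxe3.

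**Figure D3:**
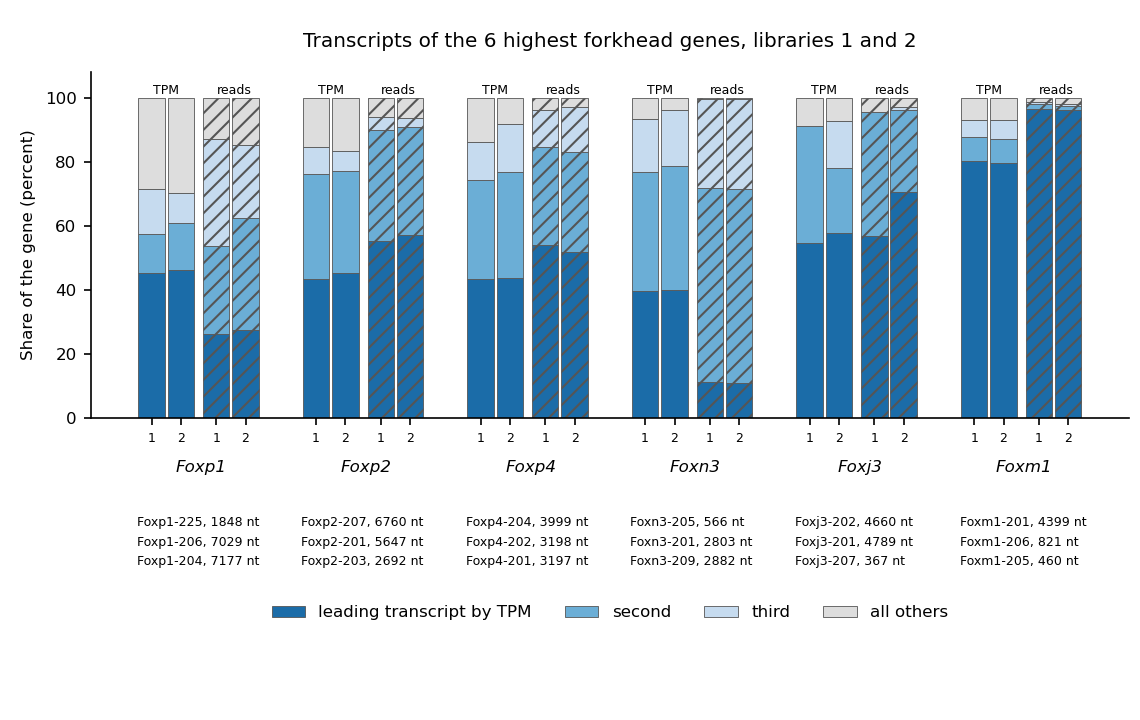
Share of each of the 6 highest forkhead genes taken by its 3 leading transcripts, in percent of TPM (plain bars) and of reads (hatched bars), for library 1 (left bar of each pair) and library 2 (right bar). Foxp1-225 and Foxn3-205, which lead by TPM, do not lead by reads in either library, while Foxm1-201 leads by both.

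Foxm1 (ENSMUSG00000001517.10, chromosome 6, 128362967 to 128376146), the only member of subclass m and an activator of genes of mitosis, had 33.3 TPM in library 1 and 30.4 TPM in library 2, a mean of 31.8 ± 2.06, with a ratio of 0.927 (0.875 to 0.982). The wider interval of this ratio included 1. Foxm1-201 held 80.3% and 79.7% of the TPM of Foxm1. The Rhno1 gene (131 and 129 TPM) starts 56 nt away on the opposite strand. All 10 listed genes of the G2 and M phases that Foxm1 is known to bind were on, with a median of 142 TPM. Cdk1, the kinase that drives entry into mitosis (381 TPM), and Birc5, the survivin gene (323 TPM), were highest, and the kinase gene Nek2 (33.4 TPM) was lowest.

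Subclass j was led by Foxj3, a factor known from muscle and male germ cells, with 19.4 and 22.4 TPM and a mean of 20.9 ± 2.10 (ENSMUSG00000032998.12, chromosome 4, 119537004 to 119629119). By reads the libraries gave a ratio of 1.00 (0.936 to 1.07). In library 2, 14.6% of TPM was assigned to Foxj3-207, an incomplete model of 367 nt, which had 0% in library 1. This share rested on 18.3 of the 1747 reads of the gene in library 2, with a posterior SD of 7.91 reads. By posterior mean values the shares of Foxj3-207 were 3.44% in library 1 and 15.3% in library 2. Foxj3-202 led with 54.6% and 57.6% and Foxj3-201 held 36.4% and 20.4%. Foxj2 had 3.03 and 3.02 TPM (mean 3.02 ± 0.00707), of which Foxj2-201 held 65.9% and 85.8%. Foxj1, the switch gene for motile cilia, was off at 0.33 and 0.59 TPM. Of 10 listed genes of motile cilia and of the programme that builds them, 4 were on, with a median of 0.418 TPM. The highest were Rfx3 (13.7 TPM), which also serves immotile cilia, and Tekt1 (4.77 TPM), and Gmnc, which starts the multiciliated programme, had no read.

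Subclass f, whose genes respond to hedgehog signals in the mesenchyme of the face and gut, was on in full. Foxf1 (ENSMUSG00000042812.5, chromosome 8, 121084386 to 121088144) had 18.6 TPM in library 1 and 14.7 TPM in library 2, a mean of 16.6 ± 2.70. Foxf2 (ENSMUSG00000038402.2, chromosome 13, 31625816 to 31631403), whose loss gives mice with cleft palate, had 11.1 and 9.29 TPM, a mean of 10.2 ± 1.31. Both were lower in library 2, with ratios of 0.810 (0.732 to 0.895) for Foxf1 and 0.851 (0.747 to 0.968) for Foxf2, and Foxf1 exceeded Foxf2 by 1.63 ± 0.0563 times. The wider intervals of both included 1. Of 12 genes of the hedgehog pathway 11 were on, with a median of 8.13 TPM. Gas1, a co-receptor, was highest (116 TPM), followed by Smo, the signal transducer (35.5 TPM), and Ihh, a ligand, was lowest, at 0.25 and 0 TPM. The counting interval excluded 1 for 7 of the 11 with enough reads, 5 higher in library 1 and 2 in library 2 (background 40.0% in all, 18.7% higher in library 1 and 21.2% higher in library 2). The pathway's target Gli1 had 7.26 and 5.17 TPM, a ratio of 0.726 (0.635 to 0.830), and the ligand Shh had 1.32 and 2.35 TPM, a ratio of 1.81 (1.35 to 2.47). Ptch1, in the same list, had 17.88 and 16.85 TPM, a ratio of 0.986 (0.932 to 1.04). Whether the differences in this pathway bear on Foxf1 and Foxf2 was not tested.

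Foxf2 shares its start region with a long non-coding gene. Its promoter window, 300 bases from RefSeq on GRCm38.p6, is shown 5′ to 3′ on the plus strand because the 2 starts lie within it, and capitals mark the 25 bases from the start of the non-coding gene, on the opposite strand, to the start of Foxf2.
Foxf2, chr13:31625566-31625865: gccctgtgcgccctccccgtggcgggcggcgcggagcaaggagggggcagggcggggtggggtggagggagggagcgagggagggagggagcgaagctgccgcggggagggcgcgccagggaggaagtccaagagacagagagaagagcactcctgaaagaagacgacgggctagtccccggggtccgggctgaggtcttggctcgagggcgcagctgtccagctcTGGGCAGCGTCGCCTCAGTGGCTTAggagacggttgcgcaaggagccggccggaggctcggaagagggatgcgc
The non-coding gene, 1700018A04Rik, had 3.27 and 3.93 TPM, against 11.1 and 9.29 TPM for Foxf2. At Foxf1, the non-coding gene Fendrr, which starts 1276 nt away on the opposite strand, had 3.10 and 3.02 TPM. Neither non-coding gene overlaps its forkhead neighbour in the annotation. Strandedness was not given in the sources used here. Whether reads were separated by strand where genes do overlap on opposite strands, as Foxl2 and Foxl2os do, is therefore not known.

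Both genes of subclass c, which act in mesenchyme of the skull, jaw, eye and blood vessels, were on at nearly the same level. Foxc1 (ENSMUSG00000050295.3, chromosome 13, 31806633 to 31812476) had 10.5 and 11.8 TPM, a mean of 11.2 ± 0.940, with a ratio of 1.15 (1.05 to 1.26). Foxc2 (ENSMUSG00000046714.7, chromosome 8, 121116171 to 121118895) had 11.9 and 11.4 TPM, a mean of 11.6 ± 0.332, with a ratio of 0.980 (0.876 to 1.10). The wider intervals of both genes included 1. Foxc2 was 1.13 times Foxc1 in library 1 and 0.962 times in library 2, so the order of the pair differed between the libraries.

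Several of these genes are neighbours. On chromosome 8, Foxf1, Foxc2 and Foxl1 lie within 46.3 kb on the same strand and had mean levels of 16.6, 11.6 and 3.44 TPM in that order along the chromosome. On chromosome 13, Foxq1, Foxf2 and Foxc1 lie within 256 kb, and their means were 1.00, 10.2 and 11.2 TPM. The Foxf and Foxc genes were thus above 9 TPM in both clusters, and Foxl1 and Foxq1 were lower. Mthfsd, which is no forkhead gene, lies between Foxf1 and Foxc2 and had 39.3 and 36.4 TPM. Gm20388, a long annotated readthrough model over the whole chromosome 8 cluster on the same strand, had 2.16 and 4.12 TPM. On chromosome 4, Foxd2 and Foxe3 lie within 19.7 kb at 2.38 and 1.58 TPM. The non-coding gene Foxd2os between them, which starts 384 nt from Foxd2, was higher than both, at 14.4 TPM in each library.

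**Figure D4:**
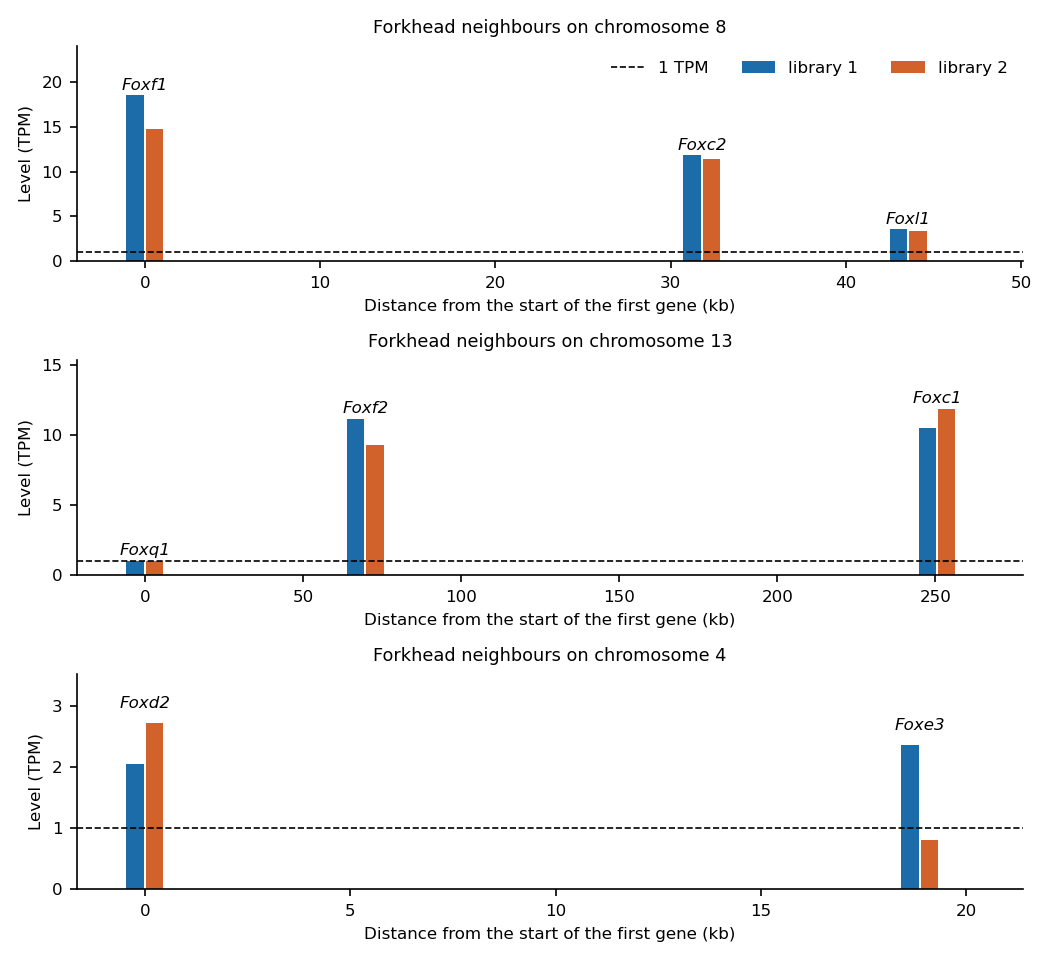
Level in TPM of the forkhead genes in 3 clusters, placed by distance from the start of the first gene in kb, with library 1 left and library 2 right of each pair and a dashed line at 1 TPM. The Foxf and Foxc genes stand between 9.29 and 18.6 TPM, and Foxq1 and Foxe3 fall on both sides of the line.

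Foxl1, known from the mesenchyme under the gut epithelium, had 3.57 and 3.31 TPM, a mean of 3.44 ± 0.184. Foxl2, known from the ovary and the eyelid, had 1.84 and 1.85 TPM (mean 1.84 ± 0.00707), and overlaps Foxl2os (1.14 and 1.84 TPM) on the opposite strand. Both members of subclass l were therefore on, and neither differed between the libraries beyond counting error, with ratios of 0.944 (0.766 to 1.16) and 1.03 (0.658 to 1.60).

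Subclass d was led by Foxd1 (ENSMUSG00000078302.4, chromosome 13, 98354242 to 98359305), a factor of kidney stroma and the optic cup. It had 11.3 and 12.5 TPM, a mean of 11.9 ± 0.834, with a ratio of 1.13 (1.00 to 1.27), and exceeded Foxd2 by 5.05 ± 0.639 times. Foxd2 had 2.05 and 2.71 TPM, a mean of 2.38 ± 0.467, with a ratio of 1.35 (1.04 to 1.75). Foxd3, which marks premigratory neural crest and the glial lineage that descends from it, was split, with 57 reads in library 1 and 36 reads in library 2, a mean of 1.01 ± 0.332 TPM that was above 1 TPM in library 1 and 0.78 TPM in library 2. Its ratio was 0.633 (0.405 to 0.977). The wider intervals of all 3 genes included 1. Of 5 markers of Schwann cell precursors 4 were on and none was at 0, with a median of 8.86 TPM. Ednrb (26.8 TPM), an endothelin receptor gene, was highest, and the list summed to 55.1 TPM in library 1 and 58.0 TPM in library 2. The part of those cells in the level of Foxd3 was not tested. Foxd4 was off, with no read in library 1 and 1 read in library 2.

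Subclass k was on in full, with Foxk2 above Foxk1 by 5.51 ± 1.07 times. These proteins work with Sin3 repressors and the deubiquitinase BAP1 and restrain autophagy genes. Foxk2 (ENSMUSG00000039275.9, chromosome 11, 121259990 to 121309896) had 10.1 TPM in library 1 and 13.6 TPM in library 2, a mean of 11.9 ± 2.45, with a ratio of 1.39 (1.28 to 1.51), or 1.05 to 1.85 with the spread between pools. Foxk2-201 held 96.7% and 98.5% of its TPM. Foxk1 had 2.13 and 2.17 TPM, a mean of 2.15 ± 0.0283. All 6 listed partners were on (median 49.98 TPM), with Sin3b (122 TPM) and Bap1 (63.2 TPM) highest and Asxl1 (15.6 TPM) lowest, and a median log2 ratio of 0.00. Foxk2 was 1 of 4 members higher in library 2 by at least 25% with a counting interval that excluded 1 (background 5.32%), and Foxd2 and Foxr2 were others.

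Foxo proteins are kept out of the nucleus by insulin and growth factor signals through AKT. Of their genes, Foxo1, Foxo3 and Foxo4 were on at similar levels, close to the median protein-coding gene (3.45 TPM). Foxo1 had 3.95 and 4.40 TPM (mean 4.17 ± 0.318), Foxo3 had 4.08 and 3.72 TPM (mean 3.90 ± 0.255) and Foxo4 had 3.33 and 3.18 TPM (mean 3.25 ± 0.106). The ratio of Foxo1 was 1.14 (1.03 to 1.26), while those of Foxo3 and Foxo4 were 0.954 (0.843 to 1.08) and 1.00 (0.814 to 1.23). For each of these genes the wider interval included 1. Foxo6, best known from brain, was off at 0.60 and 0.51 TPM. Foxo3-203 held 91.8% and 94.9% of the TPM of its gene, and Foxo4-201 held 84.9% and 88.3%. All 8 genes of the PI3K and AKT pathway were on (median 20.2 TPM), with Akt1 (63.1 TPM) and Akt2 (62.7 TPM) highest. Of 10 genes known as Foxo targets 9 were on (median 15.9 TPM), led by Ccng2 (70.8 TPM) and Txnip (47.2 TPM), with Bcl6 lowest, at 0.43 and 0.19 TPM.

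Subclasses tied to epithelium and eye were lower, and their values are given beside markers of tissues of the head. The 8 forebrain markers were all on, none at 0, with a median of 10.8 TPM and sums of 235 TPM in library 1 and 266 TPM in library 2. Fabp7 (173 TPM) and Hes5 (31.2 TPM) were highest and Sox1 (1.12 and 1.38 TPM) was lowest. The median log2 ratio of the list was 0.25, with 5 of 8 higher in library 2. The counting interval excluded 1 for 4 of the 8, each higher in library 2 (background 21.2%). All 10 genes in the list of Foxp corepressors were on (median 36.2 TPM), with Hdac2 (334 TPM) and Ctbp1 (260 TPM) highest and Gatad2b (9.14 TPM) lowest.

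In subclass e, Foxe1, a factor of the oral and thyroid epithelium whose loss gives mice with cleft palate, was on at 1.08 and 1.15 TPM (mean 1.11 ± 0.0495), with a ratio of 1.09 (0.752 to 1.57). It overlaps Gm12446 on the opposite strand (1.69 and 1.38 TPM). Foxe3, required for the lens, was split at 2.35 TPM (37 reads) in library 1 and 0.81 TPM (13 reads) in library 2, a ratio of 0.352 (0.172 to 0.678). The 8 eye markers were all on and all higher in library 1, with a median of 12.9 TPM and a median log2 ratio of -1.35. They summed to 268 TPM in library 1 and 73.6 TPM in library 2. The counting interval excluded 1 for all 8 (background 18.7%). The lens crystallin gene Cryaa had 118 and 12.9 TPM, the pigment gene Pmel had 51.0 and 21.2 TPM, and Tyrp1, the lowest, had 4.01 and 1.62 TPM. Foxe3 and Foxn4 were lower in library 2 as these markers were. Foxd1, named above for the optic cup, was not, with a ratio of 1.13 (1.00 to 1.27). Foxn1, named above for thymus and hair, was also lower in library 2, with a ratio of 0.292 (0.106 to 0.699). The part of eye tissue in the differences of Foxe3 and Foxn4 was not tested. All 8 neuron markers were on as well (median 74.0 TPM, with Tubb3 168 and Gap43 120 highest and Elavl3 7.58 lowest). All 8 were higher in library 1, with a median log2 ratio of -0.19. The counting interval excluded 1 for 7 of the 8 (background 18.7%) and included 1 for Pou4f1, at 0.988 (0.893 to 1.09).

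**Figure D5:**
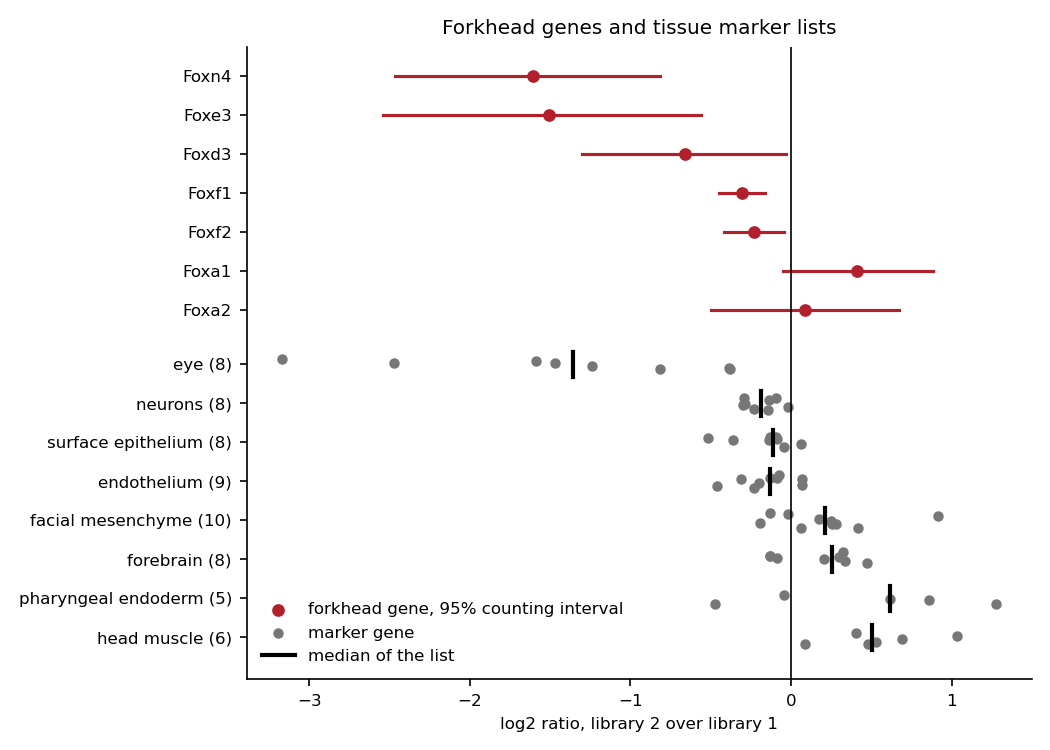
Log2 ratio of library 2 over library 1 for 7 forkhead genes with their 95% counting intervals (top) and for the genes of 8 marker lists (bottom, number of genes in brackets), with a black bar at the median of each list. The eye markers lie to the left of 0, as do Foxe3 and Foxn4, and the head muscle markers lie to the right. Foxd1 and Foxn1 are not among the 7 genes plotted.

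Foxa1 and Foxa2, pioneer factors of endoderm and floor plate, were on at just above the threshold. Foxa1 had 1.11 and 1.44 TPM and Foxa2 had 1.24 and 1.45 TPM, with ratios of 1.33 (0.966 to 1.84) and 1.06 (0.708 to 1.60). Foxa2-202 held 100% and 82.5% of the TPM of Foxa2, but 51.25% and 53.7% by posterior mean values. Its 50 reads in library 1 carried a posterior SD of 13.87 reads, so the share is uncertain. Foxa3, a liver factor, had 0 and 1 read. Of 6 markers of pharyngeal endoderm 5 were on (median 4.18 TPM), summing to 21.0 TPM in library 1 and 29.5 TPM in library 2. Nkx2-1, the regulator of thyroid, lung and ventral forebrain, was highest at 5.25 and 12.8 TPM, followed by Pax1 at 4.91 and 7.06 TPM, and the parathyroid gene Gcm2 was lowest at 0.04 and 0.03 TPM. Their part in the levels of Foxa1 and Foxa2 was not tested. Heart markers, 4 of 5 on (median 8.07 TPM; Myl2 19.9 and Myl7 12.4 highest, Myh6 1.32 lowest), summed to 21.9 and 75.3 TPM, and the 6 head muscle markers, all on (median 12.2 TPM; Actc1 65.2 and Tnnt1 40.1 highest, Myod1 6.02 lowest), to 109 and 176 TPM.

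The remaining subclasses held no gene that was on. Foxq1, known from hair and epithelium, was split at 0.97 and 1.03 TPM. In subclass i, Foxi2 had 0.72 and 0.73 TPM and Foxi3, which acts in the ectoderm of placodes, teeth and pharyngeal arches, had 0.62 and 0.77 TPM (14 and 19 reads). Foxi3 reads were assigned to Foxi3-201 in library 1 and to Foxi3-202 in library 2. Foxi1, known from the inner ear and kidney, had no read in either library, and the limits that a count of 0 allows are 0.0648 and 0.0636 TPM. Foxs1 had 0.56 and 0.59 TPM. Foxh1, the partner of Smad proteins in Nodal signalling, had 0.36 TPM (9 reads) and 0.08 TPM (2 reads). Of 7 genes of that pathway 4 were on (median 15.5 TPM), with Smad2 (48.0 TPM) highest, and the Nodal antagonist gene Lefty2 lowest, at 0.07 and 0 TPM.

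Foxr2, of subclass r, differed beyond counting error at a low level, with 0.10 TPM (6 reads) in library 1 and 0.37 TPM (23 reads) in library 2, a ratio of 3.84 (1.52 to 11.5). Foxr1 had no read, which allows 0.0934 TPM in library 1. Foxb1, a gene of the hypothalamus, had 0.25 and 0.23 TPM, and Foxb2 had 1 read in each library. Across the family 5 members had at most 1 read in each library, namely Foxa3, Foxb2, Foxd4, Foxi1 and Foxr1.

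Among the 25 genes that were on, 12 had 1 annotated transcript and 13 had several. All 13 had the same leading transcript in both libraries, as did 90.7% of 9215 protein-coding genes of that kind, and all 13 leading transcripts were annotated as protein-coding. The leader held over 80% of TPM in both libraries in 6 genes and under 50% in both in 4 (Foxp1, Foxp2, Foxp4 and Foxn3). By posterior mean values some of those 6 fell below 80%, such as Foxa2 (51.25% and 53.7%) and Foxo4 (76.0% and 78.9%). Leaders by TPM and by reads differed for Foxp1 and Foxn3.

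Promoter windows from RefSeq, 250 bases before and 50 bases after a gene's start, were found for 28 of the 44 members, 33 windows in all. The 19 windows of genes that were on came from 15 genes, so some genes count more than once. These windows had a median of 27 CG dinucleotides and 67.3% G or C, and 17 of them (89.5%) held at least 10. The 12 windows of genes that were off, from 11 genes, had a median of 9 CG dinucleotides and 58.8% G or C, and 6 of them held at least 10. Over all 32851 windows the medians were 7 CG dinucleotides and 52.7% G or C, and 43.5% held at least 10. The sequence TATAAA, on either strand, lay in 1 of the 19 windows of genes that were on and in 2 of the 12 of genes that were off, against 13.6% of all windows.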

How the data were processed

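Total RNA-seq of 2 libraries of mouse facial prominence was used. Per the labels and the notes deposited with the files, each library was aligned to the transcriptome of assembly mm10 with GENCODE M4 models and quantified on its own. Versions of aligner and quantifier are not given in the sources used here. The deposited expected counts are estimates of reads per gene or transcript; multi-mapping reads were divided and nothing was normalized. TPM and FPKM were computed by the authors from these and effective lengths, over all entries of a file, spike-ins included. The isoform percentage in the deposited transcript files is a transcript's share, in percent, of its gene's TPM. Posterior mean values served as an alternative.

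GENCODE M21, also on mm10, gave names, types and positions through the unversioned identifier (42462 of 43346 genes). Of 150 member transcripts 147 were matched, 126 with the same length. Library ratios used TMM (edgeR 4.0.16, R 4.3.3), a minimum of 20 reads over both libraries and exact intervals (scipy 1.17.1, Python 3.11.15). Spread was edgeR's common dispersion on counts rounded to whole numbers after filterByExpr. Ratios and spread were also tested on simulated data. Intervals and limits (3 reads) cover counting error only (there are no molecular identifiers, so reads can be copies of a molecule), and the libraries are separate pools from the same strain.

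The members, lists and rules were chosen with earlier results of these data known. Named were every member that was on, members off with a mean of at least 0.3 TPM, members at least 25% higher in either library with an interval that excluded 1, leading transcripts of members at 5 TPM or more, and the 2 highest members and the lowest member of each list. Genes named outside this rule, such as Gli1 and neighbouring genes, and transcripts of lower members, were chosen after their values were seen. Some genes that the rule names, and some sequences, are not reported here. A stretch of coding sequence was used for the recognition helix in place of protein sequence. Alternatives were thresholds of 0.5 and 2 TPM, FPKM, TPM over annotated genes, posterior means, DESeq2 1.42.0 size factors, total and spike-in scaling, a prior count of 0.5, no filter and leaving out a library.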

Additional observations from a re-analysis of the deposited data

How the results depend on the processing

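The number of forkhead genes on (25) was 32 at 0.5 TPM, 21 at 2 TPM, where Foxa1, Foxa2, Foxe1 and Foxl2 were lost, 22 with FPKM, 26 with TPM over annotated genes and 26 to 27 without one library or the other. The family sum of 401 TPM was 475 TPM over annotated genes only, by construction, since spike-ins leave the total, and 398 to 404 TPM when a library was left out. Setting reads over the longest protein-coding transcript, an alternative chosen after seeing the data, gave 292 TPM. The count of members whose interval excluded 1, 17, fell to 6 with the spread between pools added, also chosen after seeing the data. That interval is wider for members with many reads, but not for all members with few, such as Foxr2 and Foxn1. With spike-in scaling Foxd1, Foxd2, Foxn2, Foxo1 and Foxp1 no longer excluded 1 and Foxp4 did, and with scaling to total counts Foxd1 no longer did. No direction of a ratio whose interval excluded 1 reversed under any alternative run. DESeq2 size factors, posterior mean counts and a prior count changed no call among the 37 ratios. The same transcript led in both libraries in 13 of 13 genes with posterior means and in 12 by reads. Foxp1 was the exception, with an uncertain order by reads in library 1. No paired analysis was possible because the study has 1 group. Levels near 1 TPM rest on few reads, and 2 libraries limit every SD.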
